A study of Homo sapiens with 6 samples.

Results

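Glucose and lactate carriers were followed in human forebrain organoids given the amyloid-β peptide Aβ42. The 9 genes described are the SLC2A members SLC2A1, SLC2A3, SLC2A8, SLC2A10, SLC2A12 and SLC2A13 and the SLC16A members SLC16A1, SLC16A3 and SLC16A7, taken by their symbols from a table of 18056 genes. All 9 were listed, and all 9 passed the filter on low counts that left 13842 genes for testing. The line DYR0100, an established line of human induced pluripotent stem cells labelled as wild type, was differentiated by a dorsal forebrain protocol. In the first group of 3 libraries the organoids received vehicle, and in the second group of 3 they received 5 µM Aβ42, in both cases for 6 days. Every library is labelled with the same batch, so the groups share line, genotype, protocol and batch, and all results refer to 1 cell line. The series' text calls the replicates of a group independent and biological. How many organoids went into a library was not stated.

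Glucose enters cells by facilitated diffusion through the SLC2A (GLUT) proteins, which work in either direction along the concentration gradient. Lactate, pyruvate and ketone bodies cross membranes together with a proton through the monocarboxylate transporters encoded by SLC16A1, SLC16A3 and SLC16A7. In brain, GLUT1 is the carrier of barrier endothelium and glia, GLUT3 is the high-affinity carrier of neurons, and the monocarboxylate transporters move lactate between glycolytic and oxidative cells. Several of these genes, SLC2A1, SLC2A3 and SLC16A3 among them, are known targets of the hypoxia-inducible factor HIF.

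The libraries held 16465390 to 16742958 estimated counts each. TBR1, a marker of deep-layer cortical neurons, was at 199 to 234 CPM (read counts scaled to a common library total, with TMM factors). Of the pluripotency genes, NANOG had 0 to 2.01 estimated counts, and POU5F1 was low but present at 16 to 29 (0.950 to 1.77 CPM). The labels give the cell type as induced pluripotent stem cell. All 10 neuronal and all 9 radial glia markers passed the filter, and the summed neuronal markers were at 6366 to 6926 CPM in vehicle and at 6042 to 6293 CPM with Aβ42. Of 10 endothelial markers 3 passed, which were CLDN5, KDR and TEK at 16 to 49, 9 to 35 and 7 to 15 counts. PECAM1, VWF and CDH5 had no more than 2, 2 and 1 counts in any library. These last 3 markers of endothelium, where SLC2A1 is abundant in brain, were thus near 0, while the 3 that passed were low but present. Of the 10 microglial markers C1QA, C1QB, C1QC, TREM2 and TYROBP were at 0 counts in all 6 libraries, which allows up to 3 counts or 0.182 CPM, and CD68 alone passed. Of the erythroid markers HBA1 and HBA2 were at 0 counts. Vehicle replicate 2 and Aβ42 replicate 2 stood apart in the summed choroid plexus markers, at 965 and 896 CPM against 389 to 495 CPM in the other 4 libraries. In whole organoid RNA, fewer cells of a type and less RNA per cell cannot be told apart.

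Levels of different genes were compared as TPM, which divides by transcript length. SLC16A1 (MCT1, a widely expressed lactate and ketone body carrier) had the highest level of the 9, with 96.7, 84.9 and 98.0 TPM in vehicle replicates 1 to 3 and 104, 105 and 97.2 TPM in Aβ42 replicates 1 to 3. SLC2A3 followed with a mean of 65.6 ± 18.2 TPM (SD, n = 6), and it was below SLC16A1 in 6 of 6 libraries although their ranges overlapped. SLC2A1 was next at 28.0 ± 8.24 TPM, and its highest library (35.6 TPM) lay below the lowest of SLC2A3 (42.8 TPM). SLC2A13, SLC2A12, SLC16A3 and SLC2A8 formed a middle tier with means of 13.2, 12.7, 10.5 and 10.2 TPM. Neighbours within that tier overlapped in range, and SLC2A13 was above SLC2A12 in 4 of 6 libraries and SLC2A12 above SLC16A3 in 3 of 6. SLC16A7 (4.84 ± 0.409 TPM) and SLC2A10 (2.02 ± 0.458 TPM) had the lowest means. SLC16A7 overlapped SLC16A3, which was at 4.28 TPM in vehicle replicate 2, and SLC2A10 overlapped no other member.

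**Figure D1:**
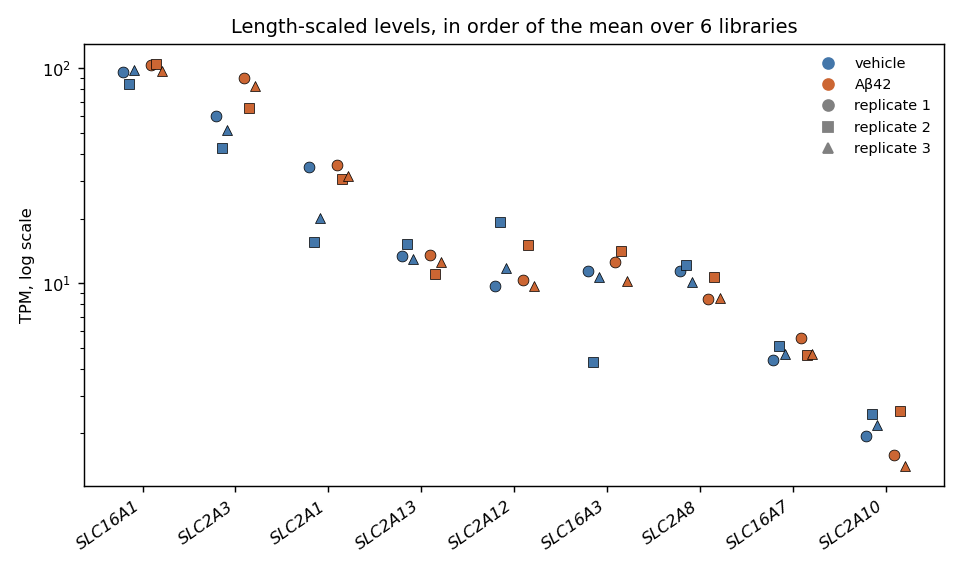
Length-scaled level (TPM, log axis) of each transporter, ordered by its mean over 6 libraries; blue is vehicle, orange is Aβ42, and the marker shape gives the replicate number. SLC16A1, SLC2A3 and SLC2A1 lie above the other genes in their means, while the 4 genes from SLC2A13 to SLC2A8 share 1 range.

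SLC2A3 (Entrez gene ID 6515, chromosome 12, 7919230 to 7936187 in GRCh38 by RefSeq, as for the genes below) encodes GLUT3 and was the member with the clearest difference. It was at 88.2, 61.2 and 74.8 CPM in vehicle replicates 1 to 3 and at 134, 96.3 and 126 CPM in Aβ42 replicates 1 to 3. The 3 Aβ42 libraries lay above the 3 vehicle libraries, and replicate 2 was the lowest of both groups. The fitted level with Aβ42 was 1.59-fold that of vehicle, a log2 fold change of 0.67 ± 0.18 (SE), and it missed the threshold of 0.05 under edgeR's quasi-likelihood fit (adjusted p-value 0.11). With the replicate number as a block the log2 fold change was 0.67 ± 0.06 and the adjusted p-value 3e-06, so the gene passed in that fit. Aβ42 over vehicle was 1.52-fold, 1.57-fold and 1.69-fold within replicate numbers 1, 2 and 3, so the 3 ratios were close although the levels were not. These ratios rest on the numbers as given, and the data do not favour pairing 1 and 3 by number over the swap. With both libraries numbered 2 left out, the blocked fit gave 0.68 ± 0.07 (adjusted p-value 4.59e-05), a setting chosen after the data were seen.

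The reads behind SLC2A3 were whole counts in every library, between 1007 and 2199, for which counting error alone is 2.13% to 3.15%. Its near-identical copy SLC2A14, expressed mainly in testis, had 0 to 2 counts. How reads that fit both genes were counted is not given in the sources used here, which leaves the SLC2A3 level uncertain by that share. Of the 10 neuronal markers 6 had higher and 4 lower fitted means, with a median log2 fold change of 0.01, and their part was not tested. The most abundant ones, DCX and MAP2, were lower in every Aβ42 library (-0.15 ± 0.06 and -0.18 ± 0.05), as was TUBB3 (-0.16 ± 0.05). SNAP25 alone was higher in every one (0.15 ± 0.06). So 3 of the 10 had every Aβ42 library below vehicle and 1 above, against 13.4% and 13.6% of all tested genes. Summed intermediate progenitor markers were at 210 to 232 CPM in vehicle and at 143 to 173 CPM with Aβ42. Of these markers 5 of 6 were lower in every Aβ42 library, as were 13.4% of all tested genes, and the most abundant, EOMES, was at -0.83 ± 0.17. Of 8 astrocyte markers 6 had lower fitted means, against 6818 of the 13842 genes tested. The astrocyte marker sums were at 1377 to 1474 CPM in vehicle and at 1253 to 1416 CPM with Aβ42. The part of either list in the transporter values was not tested. The summed transcripts of 21 HIF targets were at 1790, 1239 and 1568 CPM in vehicle and 2055, 1778 and 1937 CPM with Aβ42, where vehicle replicate 1 lay above Aβ42 replicate 2, and their part in the SLC2A3 difference was not tested.

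SLC2A1 (6513, chromosome 1, 42925353 to 42958868) encodes GLUT1, the basal glucose carrier of many cells. It was at 44.6, 19.3 and 25.6 CPM in vehicle and at 46.1, 39.3 and 41.8 CPM with Aβ42. Vehicle replicate 1 fell within the Aβ42 range while the other vehicle libraries lay below it. The coefficient of variation was 44.1% in vehicle and 8.20% with Aβ42. The log2 fold change was 0.51 ± 0.32 with an adjusted p-value of 0.39, and 0.56 ± 0.24 with 0.265 under the replicate block. It was 0.92 without vehicle replicate 1 (adjusted p-value 0.0827) and 0.27 without vehicle replicate 2 (0.619), and it passed in none of the 18 alternatives. GENCODE annotates antisense transcripts (SLC2A1-AS1) over the start of this gene, and whether counting used strand is not given in the sources used here.

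SLC2A3 exceeded SLC2A1 on the TPM scale by 1.73, 2.76 and 2.56 times in vehicle and by 2.54, 2.14 and 2.64 times with Aβ42, so this ratio overlapped between groups. Of the TPM summed over the 6 SLC2A members, SLC2A3 took 44.4% ± 4.03 in vehicle and 53.8% ± 4.77 with Aβ42 (SD, n = 3 each). SLC2A1 took 19.8% ± 6.13 and 22.1% ± 0.558. Summed, these TPM came to 132, 108 and 109 for the vehicle libraries and to 160, 135 and 147 for the Aβ42 libraries, with no overlap between the groups. SLC2A3 was the largest single part of the measured SLC2A transcripts in both groups.

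The other SLC2A members had lower fitted means with Aβ42, and none passed. SLC2A8 (GLUT8, an intracellular hexose carrier) was at 7.27, 7.54 and 6.53 CPM in vehicle and at 5.91, 7.01 and 6.00 CPM with Aβ42. Its groups overlapped through Aβ42 replicate 2, and the log2 fold change was -0.17 ± 0.13 (adjusted p-value 0.448). It was lower with Aβ42 within each replicate number, at 0.813, 0.929 and 0.919 of vehicle. SLC2A10 (GLUT10, whose loss causes arterial tortuosity syndrome) was at 3.18, 3.89 and 3.42 CPM in vehicle and 2.68, 4.16 and 2.28 CPM with Aβ42. Aβ42 replicate 2 was the highest library and Aβ42 replicate 3 the lowest, so the groups overlapped. With 38 to 70 counts, its counting error was up to 16.2%, and its log2 fold change of -0.20 ± 0.24 (adjusted p-value 0.628) was smaller than its SE.

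SLC2A13 (HMIT, a proton-coupled carrier of myo-inositol and not of glucose) was at 34.8, 40.9 and 35.6 CPM in vehicle and 35.8, 29.3 and 34.7 CPM with Aβ42. The libraries of replicates 1 and 3 lay within 34.7 to 35.8 CPM in both groups, and those of replicate 2 lay on either side. The log2 fold change of -0.16 ± 0.09 (adjusted p-value 0.309) became 0.00 ± 0.08 in the blocked fit without both libraries numbered 2, so the difference rested on those 2 libraries.

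SLC2A12 (GLUT12, a glucose and urate carrier) was at 19.7, 35.6 and 22.1 CPM in vehicle and 22.7, 27.3 and 20.8 CPM with Aβ42. The highest library of each group was its replicate 2, and the other 4 lay between 19.7 and 22.7 CPM. The log2 fold change was -0.13 ± 0.24 (adjusted p-value 0.777), and it turned to 0.17 ± 0.12 (0.529) without vehicle replicate 2. The choroid plexus marker sum was likewise highest in the libraries numbered 2, and TTR made up 872 of the 965 CPM in vehicle replicate 2. TTR, KCNJ13, CLIC6 and OTX2 were highest in those 2 libraries, while AQP1, FOLR1 and KL did not follow that order. No marker of this list was at 0, and their part in the SLC2A12 values was not tested.

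SLC16A1 (6566, chromosome 1, 112911847 to 112956196) was the second member whose groups did not overlap in CPM. On the TPM scale they did overlap, with Aβ42 replicate 3 (97.2 TPM) below vehicle replicate 3 (98.0 TPM). It was at 139, 119 and 139 CPM in vehicle and 152, 151 and 145 CPM with Aβ42. The lowest Aβ42 library lay just above the highest vehicle library, and vehicle replicate 2 was the lowest of the 6. The log2 fold change was 0.17 ± 0.06, a fitted 1.13-fold level, with an adjusted p-value of 0.137, and 0.0541 with the replicate block. Without vehicle replicate 2 it was 0.10 ± 0.06 (0.418). The gene passed in none of the 18 alternatives.

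SLC16A3 (9123, chromosome 17, 82217934 to 82240086) encodes MCT4, the low-affinity carrier through which glycolytic cells export lactate. It was at 9.73, 3.40 and 8.90 CPM in vehicle and 11.5, 12.5 and 9.36 CPM with Aβ42. Vehicle replicate 2 was at 0.365 of the mean of the other 2 vehicle libraries, and without it the 5 remaining libraries lay between 8.90 and 12.5 CPM. The log2 fold change of 0.59 ± 0.36 (adjusted p-value 0.358) was 0.25 ± 0.15 (0.451) without that library. Within replicate numbers 1, 2 and 3 the Aβ42 library was at 1.18-fold, 3.66-fold and 1.05-fold the vehicle library. The estimated counts, 55.9 to 210, were not whole, and how the fractions arose is not given in the sources used here.

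SLC16A7 (MCT2, the high-affinity monocarboxylate carrier of neurons) was at 21.4, 24.0 and 22.6 CPM in vehicle and 27.1, 22.5 and 23.6 CPM with Aβ42. The groups overlapped, and the log2 fold change was 0.11 ± 0.09 (adjusted p-value 0.473). On the TPM scale SLC16A1 was 16.7 to 22.7 times SLC16A7 over the 6 libraries. SLC16A1 took 87.5% ± 2.27 of the TPM summed over the 3 SLC16A members in vehicle and 85.6% ± 0.993 with Aβ42. The estimated counts of SLC16A7 and SLC2A12 were also not whole in every library.

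**Figure D2:**
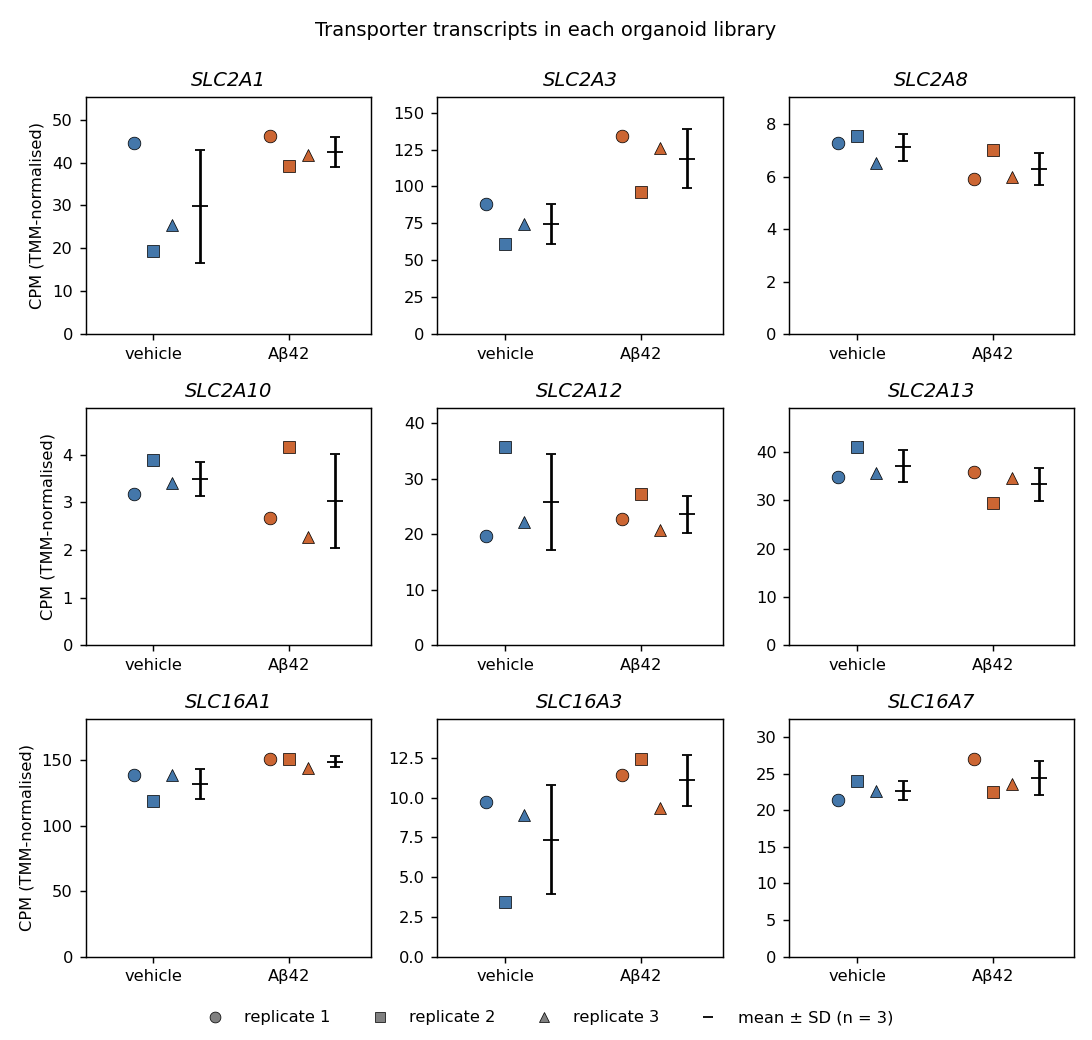
TMM-normalised CPM of the 9 transporters in each library, with the mean and SD of each group of 3; marker shapes give replicate numbers and each axis starts at 0. The Aβ42 points of SLC2A3 (96.3 to 134 CPM) and SLC16A1 (145 to 152 CPM) lie above all vehicle points, and the other 7 panels overlap.

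Read together, 2 of the 9 members had Aβ42 libraries all above the vehicle libraries in CPM, where 13.6% of all tested genes did. These were SLC2A3 and SLC16A1, and SLC16A1 was not separated on the TPM scale. None had all Aβ42 libraries below, against 13.4%. Groups that did not overlap in either direction made up 27% of all tested genes. In edgeR's quasi-likelihood test 0 of 9 members passed an adjusted p-value of 0.05, against 0% of all genes tested. Without adjustment SLC2A3 and SLC16A1, 2 of 9, had a p-value under 0.05, as did 23.9% of all genes (12.4% higher and 11.5% lower). With the replicate block 1 member passed (SLC2A3, higher), against 14.2% of all genes (7.12% higher and 7.05% lower), a share of members near that of all genes. The DESeq2 Wald test called SLC2A3 and no other member (adjusted p-value 0.0255), against 6.56% of the genes it tested (3.11% higher and 3.45% lower). SLC2A3 was likewise the single member called by limma-voom with sample quality weights, where 17.8% of genes passed (8.75% higher and 9% lower). The same held without Aβ42 replicate 2, where 23.1% passed (11.5% higher and 11.6% lower). It held too in the blocked fit without both libraries numbered 2, where 14.7% passed (7.31% higher and 7.36% lower). Median log2 fold change was 0.11 over the members and 0.0032 over all tested genes. Fitted means were higher for 5 members and lower for 4, and higher for 50.7% of all tested genes.

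**Figure D3:**
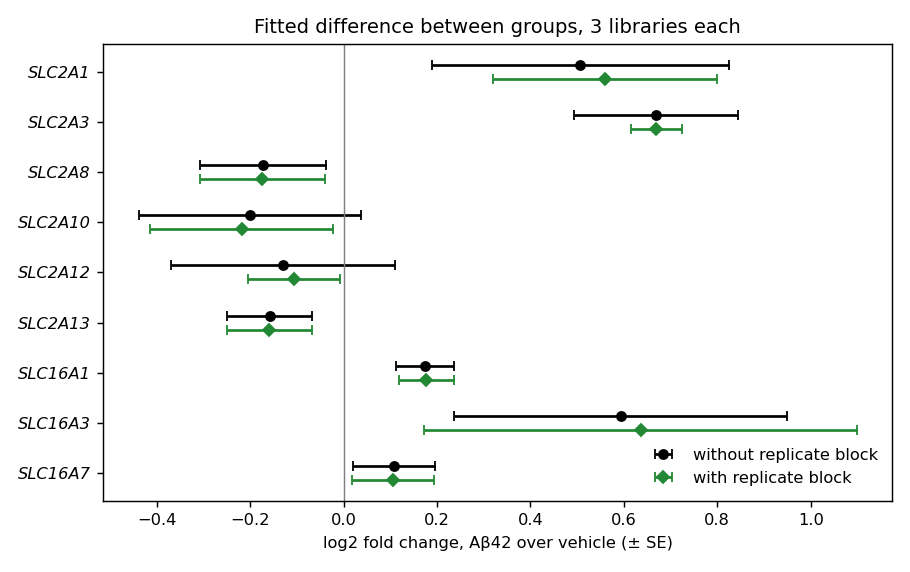
Fitted log2 fold change (Aβ42 over vehicle, ± SE) without and with the replicate number as a block. For SLC2A3 the SE narrows from 0.18 to 0.06.

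Within replicate numbers, 4 members (SLC2A1, SLC2A3, SLC16A1 and SLC16A3) were higher with Aβ42 in 3 of 3 pairs, and SLC2A8 was lower in 3 of 3. This rests on the numbers as given, since the data do not favour pairing 1 and 3 by number over the swap. Vehicle replicate 1 lay above Aβ42 replicate 3 for SLC2A1 (44.6 and 41.8 CPM) and SLC16A3 (9.73 and 9.36 CPM). With that swap neither gene would be higher in every pair. For SLC2A1 the ratios were 1.03-fold, 2.03-fold and 1.64-fold, a far wider range than for SLC2A3. Vehicle replicate 2 was the lowest of the 6 libraries for 4 members, the same that were higher in all pairs, and the highest for 3 (SLC2A8, SLC2A12 and SLC2A13). The 21 HIF targets had their lowest mean deviation from the gene means in the same library (-0.78 on the log2 scale), as did the 17 tested glycolytic enzymes (-0.36).

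**Figure D4:**
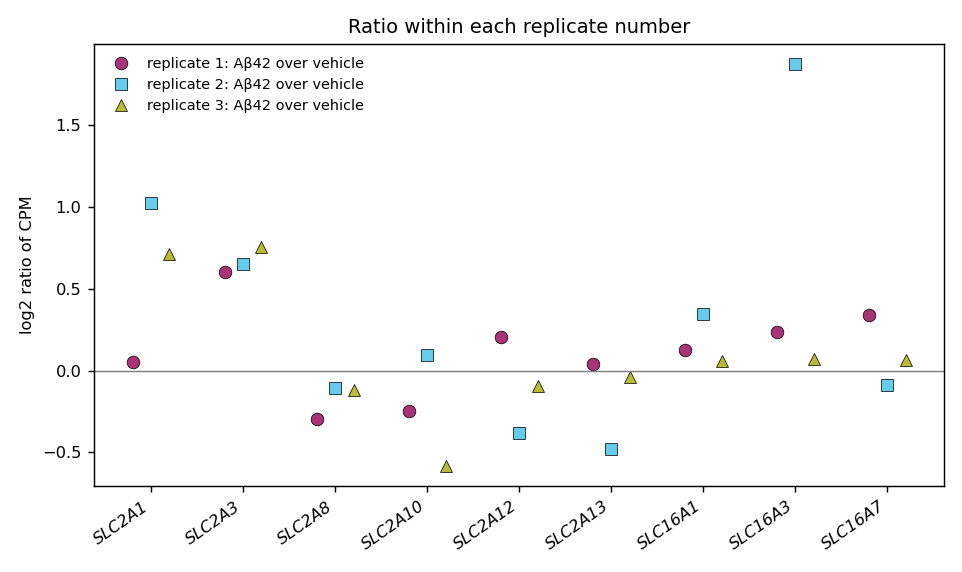
Log2 ratio of CPM, Aβ42 over vehicle, within each replicate number. The SLC2A3 ratios lie between 0.60 and 0.75, whereas SLC16A3 reaches 1.87 in replicate 2 and stays at 0.07 in replicate 3.

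**Figure D5:**
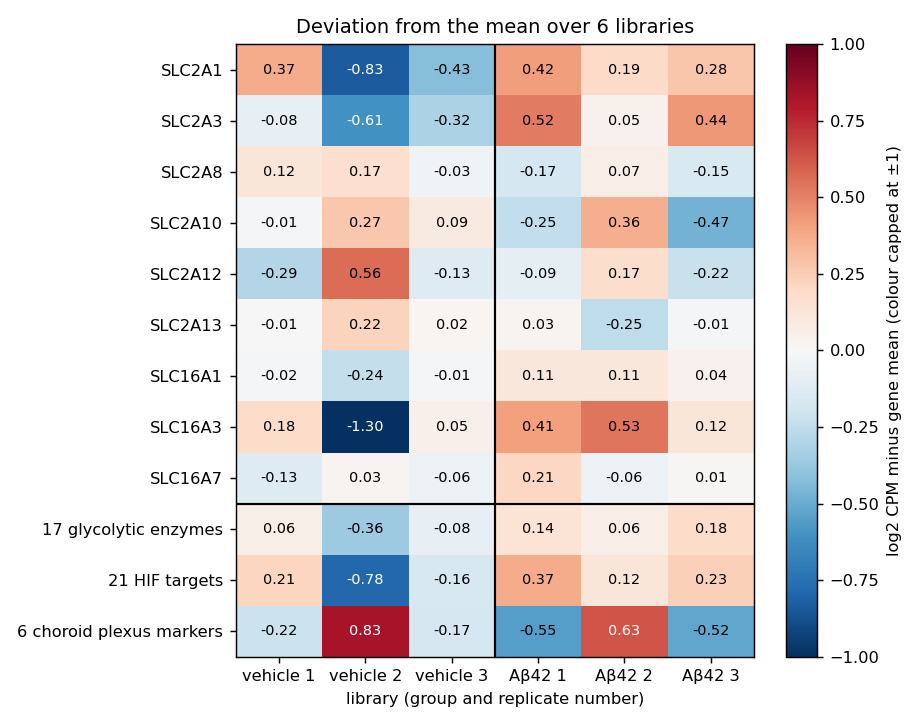
Log2 CPM of each library minus the gene's mean over 6 libraries, for the 9 transporters and, below the line, the mean deviation over the tested glycolytic enzymes, HIF targets and choroid plexus markers. Vehicle replicate 2 is at -0.83 for SLC2A1, -0.61 for SLC2A3 and -1.30 for SLC16A3, and at 0.56 for SLC2A12.

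In vehicle replicate 2, SLC16A3 was the member farthest below the other vehicle libraries and SLC2A12 the one farthest above them (1.70 times their mean). Their promoters are shown for that reason, with that of SLC2A13 as a further comparison. The RefSeq promoter table (GRCh38.p14) held 12 windows for 7 of the 9 members and no entry for SLC2A3 or SLC16A1. Each sequence is the 250 bases before an annotated start, 5′ to 3′ on the gene's strand. Capitals mark the letters ACGTG on either strand, the usual core of a HIF binding site.
SLC16A3, chr17:82228792-82229041, plus strand: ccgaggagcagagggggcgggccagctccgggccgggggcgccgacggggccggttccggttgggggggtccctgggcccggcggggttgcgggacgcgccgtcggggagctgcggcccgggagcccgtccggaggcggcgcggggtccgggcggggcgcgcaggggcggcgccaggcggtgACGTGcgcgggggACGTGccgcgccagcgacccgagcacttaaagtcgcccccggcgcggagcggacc
SLC2A12, chr6:134052625-134052874, minus strand: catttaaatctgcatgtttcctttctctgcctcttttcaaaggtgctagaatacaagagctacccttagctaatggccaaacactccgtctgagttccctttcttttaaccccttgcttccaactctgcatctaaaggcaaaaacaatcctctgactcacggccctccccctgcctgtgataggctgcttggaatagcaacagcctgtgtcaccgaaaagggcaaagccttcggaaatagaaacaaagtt
SLC2A13, chr12:40106082-40106331, minus strand: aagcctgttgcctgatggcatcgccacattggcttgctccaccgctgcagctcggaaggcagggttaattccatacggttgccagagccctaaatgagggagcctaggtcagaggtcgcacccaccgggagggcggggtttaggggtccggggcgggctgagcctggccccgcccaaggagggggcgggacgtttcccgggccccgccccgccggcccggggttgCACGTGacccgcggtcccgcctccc
The SLC16A3 window printed is 1 of 5 listed for that gene and the only one of them that holds ACGTG. It holds these letters at 68 and 55 bases before the start, both on the gene's strand. Its G and C content is 83.2%. The SLC2A12 window holds none and has 46% G and C. The single window of SLC2A1, a known HIF target, holds none either. All 250 bases of that window lie in exons that GENCODE annotates for SLC2A1, so it does not lie before every annotated start of the gene. In SLC2A13 the capitals form the palindrome CACGTG, which counts once on each strand, overlapping. Over 35116 windows of the same length in that table, 18.5% held at least 1 ACGTG on either strand and 7.52% held 2 or more. That 7.52% includes windows with a single CACGTG, as in SLC2A13, so it is not the share with 2 separate sites. Among the members' 12 windows 3 held at least 1 (SLC16A3, SLC2A13 and SLC2A10). The variant core GCGTG, searched on both strands and able to share bases with ACGTG, was in 2 of the 12 windows and in 32.2% of all. A match describes letters only and is no evidence of binding.

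Relatives of the members were mostly low. Of the 8 further SLC2A genes listed, 6 were in the table and 2 passed the filter. SLC2A6 was at 7.63, 8.45 and 5.92 CPM in vehicle and 5.36, 6.06 and 5.52 CPM with Aβ42, a log2 difference of -0.38 ± 0.16 with an adjusted p of 0.179, and SLC2A11 differed by 0.01 ± 0.13 on the log2 scale. Of 11 further SLC16A genes 8 were tested. SLC16A14, an orphan carrier, was at 148, 146 and 155 CPM in vehicle and 121, 137 and 122 CPM with Aβ42. SLC16A9, known as a carnitine carrier, was at 94.0, 89.9 and 87.8 CPM in vehicle and 76.6, 83.8 and 76.7 CPM with Aβ42. Both had all Aβ42 libraries below vehicle, with log2 fold changes of -0.24 ± 0.06 and -0.20 ± 0.06. Their adjusted p-values in edgeR's test were 0.0734 and 0.0891, and 0.00980 and 0.0293 with the replicate block, so both passed as lower in the blocked fit. Over all tested genes 13.4% had every Aβ42 library below vehicle and 7.05% passed as lower with the block. The 3 relatives with higher fitted means, SLC16A6, SLC16A4 and SLC16A13, had log2 fold changes of 0.14 ± 0.09, 0.26 ± 0.20 and 0.16 ± 0.30 and did not pass. Of the 6 sodium-coupled carriers only SLC5A3, which takes up myo-inositol, was tested (log2 fold change -0.08 ± 0.09).

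Of 5 proteins that place the carriers in the membrane or remove them from it, 4 had higher fitted means, against 50.7% of all genes. Their median log2 fold change was 0.20 against 0.0032 for all genes. BSG (basigin), the chaperone that MCT1 and MCT4 need at the surface, was at 238, 226 and 232 CPM in vehicle and 268, 245 and 286 CPM with Aβ42. TXNIP, an arrestin-like protein that promotes removal of GLUT1 from the surface, was at 368, 322 and 416 CPM in vehicle and 726, 431 and 700.1 CPM with Aβ42. Neither gene overlapped between groups. Over all tested genes 13.6% had every Aβ42 library above vehicle, and 7.12% passed as higher with the replicate block. The log2 fold changes were 0.20 ± 0.06 for BSG and 0.75 ± 0.23 for TXNIP, with adjusted p-values in edgeR's test of 0.0974 and 0.150, and 0.0187 and 0.0101 with the replicate block, where both passed. ARRDC4, a TXNIP relative, had a log2 fold change of 0.19 ± 0.09, and NPTN, a basigin relative, one of -0.01 ± 0.06.

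Hexokinases trap glucose in the cell by phosphorylating it. HK1, the main brain hexokinase, differed by 0.20 ± 0.07 on the log2 scale (adjusted p 0.135, and 0.0213 with the replicate block). HK2, an inducible hexokinase, was at 55.7, 13.0 and 36.0 CPM in vehicle and 81.4, 52.6 and 70.7 CPM with Aβ42. Vehicle replicate 1 lay above Aβ42 replicate 2, so its groups overlapped, and the log2 fold change of 0.97 ± 0.54 did not pass (adjusted p-value 0.357). Among the 6 tested genes of this group HKDC1 (0.34 ± 0.17), ADPGK (-0.11 ± 0.09) and G6PC3 (-0.10 ± 0.10) did not pass in either fit.

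Of the 17 tested glycolytic enzymes 14 had higher fitted means, against 50.7% of all tested genes. Their median log2 fold change was 0.26, and 0.16 without vehicle replicate 2. None passed without the block, where 6 were higher at an unadjusted p-value under 0.05 (12.4% of all genes), and 8 passed as higher with it (7.12% of all genes). PKM, pyruvate kinase, was at 487, 386 and 441 CPM in vehicle and 514, 516 and 523 CPM with Aβ42, with no overlap between groups. ENO2, the neuronal enolase, was at 450.4, 366 and 412 CPM in vehicle and 539, 436 and 538 CPM with Aβ42, and its lowest Aβ42 library lay below the highest vehicle library. Both passed with the block (adjusted p-values 0.0130 and 0.00111), while TPI1 (0.19 ± 0.07) did not (0.0635). The 3 genes with lower fitted means, PFKFB1, PFKFB3 and PFKFB2, which set the level of an activator of glycolysis, had log2 fold changes of -0.28 ± 0.26, -0.13 ± 0.17 and -0.03 ± 0.07. None of these 3 passed in either fit.

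Lactate dehydrogenase interconverts pyruvate and the lactate that the SLC16A members carry. LDHA was at 27.3, 23.9 and 27.0 CPM in vehicle and 26.9, 25.6 and 27.8 CPM with Aβ42, a log2 difference of 0.04 ± 0.08 with an adjusted p of 0.792. Reads of LDHA can be divided with its processed pseudogenes in counting, so its level is uncertain. LDHB was at 424, 424 and 419 CPM in vehicle and 431, 438 and 459.5 CPM with Aβ42, a log2 difference of 0.07 ± 0.05 with an adjusted p of 0.382, with every Aβ42 library above vehicle. Of 17 tested genes of lactate and pyruvate use 13 had higher fitted means, against 50.7% of all tested genes. Their median log2 fold change was 0.07. PDK3, a kinase that restrains pyruvate dehydrogenase, was the one that passed with the block (0.24 ± 0.08, adjusted p-value 0.0402 there), where 7.12% of all genes passed as higher. PDHA1 (0.15 ± 0.06), MPC1 (0.15 ± 0.07), DLD (-0.12 ± 0.05), PC (-0.19 ± 0.09) and DLAT (-0.07 ± 0.06) did not pass.

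Of 21 HIF targets outside glycolysis 20 had higher fitted means, against 50.7% of all tested genes. Their median log2 fold change was 0.38, and 0.16 without vehicle replicate 2. None passed without the block, where 5 were higher at an unadjusted p-value under 0.05, and 7 passed as higher with it, against the same 12.4% and 7.12% of all genes. P4HA2, a collagen prolyl hydroxylase, was at 26.4, 22.9 and 25.7 CPM in vehicle and 35.2, 28.4 and 34.7 CPM with Aβ42, with no overlap. BNIP3L, a mitophagy receptor, was at 320.4, 264 and 306 CPM in vehicle and 362, 313 and 353 CPM with Aβ42, with overlapping groups. ANGPTL4, a lipoprotein lipase inhibitor, was at 2.16, 0.486 and 0.793 CPM in vehicle and 2.56, 2.49 and 2.28 CPM with Aβ42. The ANGPTL4 groups did not overlap, but its counts were low, at 8 to 42. The blocked fit gave adjusted p-values of 0.00234, 0.00883 and 0.0352 for these 3. MXI1, the single target with a lower fitted mean, had a log2 fold change of -0.01 ± 0.05.

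Of 9 HIF subunits and hydroxylases 3 had higher and 6 lower fitted means. HIF1A, the oxygen-regulated subunit, was at 193, 206 and 198 CPM in vehicle and 175, 186 and 171 CPM with Aβ42. Its Aβ42 libraries all lay below vehicle, a log2 difference of -0.17 ± 0.05 (adjusted p 0.1, and 0.0334 with the block). ARNT2, a neuronal partner subunit, had a log2 fold change of -0.30 ± 0.09 and ARNT, its paralog, one of 0.29 ± 0.10. Both passed with the block (adjusted p-values 0.00226 and 0.0103), in opposite directions. EPAS1, the HIF-2α subunit, was at 7.39, 11.7 and 6.77 CPM in vehicle and 4.63, 8.61 and 3.78 CPM with Aβ42, with overlapping groups (-0.60 ± 0.35), and it passed as lower with the block (adjusted p-value 0.00608). EGLN3 (0.30 ± 0.14), HIF1AN (0.07 ± 0.05) and VHL (-0.13 ± 0.07) did not pass in either fit. With the block 14.2% of all genes passed in either direction.

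By Pearson correlation of log2 CPM over the 6 libraries, a description in which group and replicate number are shared by all genes, the genes most like SLC2A3 were FAM98C (r = 0.999), RPL36 (0.999) and ISYNA1 (0.998). Those most like SLC16A1 were IGF2BP1 (0.999), FUT11 (0.993) and GPC4 (0.990). For SLC2A13 they were SEMA3E (0.990), RAB3C (0.979) and DNAAF2 (0.974). Among the members SLC16A3 was nearest to SLC16A1 (0.971), and SLC2A1 was nearest to SLC2A3 (0.868).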

How the data were processed

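RNA was measured in 3 vehicle and 3 Aβ42 libraries. The authors deposited 1 table of read counts per gene and library, of which 86.9% to 87.5% were whole numbers, so they were treated as estimated counts. TPM values in the same table were scaled for length and library total by the authors. Per the submitters' processing notes, STAR 2.7.11b, featureCounts 2.0.6, FastQC and GRCh38 were used, without roles, and the annotation and the treatment of shared reads are not given in the sources used here. Per the labels' protocols, polyadenylated RNA and a stranded kit with PCR were used and no molecular identifiers are mentioned, so floors and counting errors cover counting alone.

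Estimated counts were rounded. Genes were kept by filterByExpr, TMM set the scaling of libraries, and the main comparison used the quasi-likelihood test of edgeR 4.0.16 in R 4.3.3 (robust, no block, two-sided). P-values were adjusted by Benjamini-Hochberg over 13842 genes (threshold 0.05). The procedure was tested on simulated counts with a fixed dispersion, no replicate effect and no outlying library. That test does not cover such effects in these data. Differences are given as log2 of Aβ42 relative to vehicle, and SE is their size divided by the square root of F. Alternatives were another scaling, filter, dispersion or pseudocount, each library left out, the replicate block, limma 3.58.1 and DESeq2 1.42.0.

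Same-numbered libraries deviated together from their group means over 12187 genes (correlations 0.198, 0.411 and 0.133 for numbers 1 to 3), so libraries of the same number were treated as pairs. That pairing comes from the data and not from the labels, and the libraries numbered 2 carry most of it: vehicle 3 with Aβ42 1 (0.208) and vehicle 1 with Aβ42 3 (0.157) correlated as highly, so the data do not favour pairing 1 and 3 by number over the swap, and blocked results rest on the numbers as given. Chi-square statistics of the counts were 3.16 to 21.2 per gene for every pair of libraries, so none was a duplicate. The biological coefficient of variation was 6.75%, and the median count of a tested gene was 495.5 to 516 over libraries. Members, gene lists and tests were chosen with earlier results of these data known. Named genes were all members, SLC2A14, TXNIP, BSG, HK2, LDHA and LDHB, and otherwise at most 3 genes a direction in each list with the smallest p-values, markers at 0 or most abundant, and the 3 genes most correlated with each of the 3 members of smallest p-value. TBR1, NANOG, POU5F1, PECAM1, VWF, CDH5, TEK, TUBB3, SNAP25, EPAS1 and the choroid plexus markers beyond the most abundant were named after values were seen. Some genes chosen this way are not reported here.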

Additional observations from a re-analysis of the deposited data

How the results depend on the processing

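In edgeR's quasi-likelihood test 0 of 13842 genes passed in either direction, with 1716 higher and 1586 lower at an unadjusted p-value under 0.05. The counts of genes passing as higher and lower were 189 and 171 when low counts stayed in, 383 and 426 by DESeq2, and 1211 and 1246 when limma-voom weighted libraries by quality. The replicate block gave 986 and 976, or 1014 and 1021 once both libraries numbered 2 were left out. Leaving out 1 library gave 0 to 1607 and 0 to 1617, with calls only without Aβ42 replicate 2, whose quality weight was 0.395. Members passing as higher were 0 to 1 when 1 library was left out and 1 by DESeq2, with quality weights, with the block, and with the block without both libraries numbered 2. That member was SLC2A3, at log2 fold changes of 0.67 (DESeq2), 0.74 (quality weights), 0.67 (replicate block), 0.68 (block without both libraries numbered 2) and 0.80 (without Aβ42 replicate 2, adjusted p-value 0.0307), and 0.54 to 0.80 over the 6 left-out libraries. Its adjusted p-value reached 0.341 over the 18 alternatives. SLC2A12 turned to 0.055 with the block without both libraries numbered 2, and ranged from -0.29 to 0.17 over the left-out libraries. SLC2A13 was at 0.00013 with the block without both libraries numbered 2. The 90 tested pathway genes did not include the members. Those passing as higher and lower were 1 and 1 with no filter, 8 and 2 by DESeq2, and 23 and 4 with quality weights. They were 20 and 5 with the block, and 22 and 5 with the block without both libraries numbered 2. Over the left-out libraries they were 0 to 11 and 0 to 7. The replicate block changed the call of no other member. The cause of these changes was not tested. Counts were low for SLC2A10, SLC2A8 and SLC16A3, with counting errors of up to 16.2%, 10.2% and 13.4%. For SLC16A3 the coefficient of variation in vehicle was larger than that, at 46.8%.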

Other observations

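Ketone bodies share the SLC16A carriers with lactate. Of 4 tested genes of ketone body use, ACAT1 (0.09 ± 0.06) had a higher fitted mean with Aβ42, as a log2 fold change, and BDH1 (-0.32 ± 0.17) and OXCT1 (-0.04 ± 0.05) lower ones. None passed in edgeR's quasi-likelihood test without or with the replicate block. OXCT1, the enzyme that commits ketone bodies to oxidation, was at 95.3, 97.9 and 93.7 CPM in vehicle and 90.3, 96.1 and 92.0 CPM with Aβ42.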
